A study of Mus musculus with 12 samples.

Results

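The genes described are 44 DNA replication and S phase genes of the mouse, chosen by their known function: loading and firing of replication origins, the replication fork, nucleotide supply and the chromatin behind the fork. All 44 were found among the 52336 gene identifiers of the table, and 43 passed the filter of a mean normalised read count of at least 10 over the 12 libraries. The one left out was Fen1.

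The study asked how N-acetylcysteine (NAC), an antioxidant that also feeds cysteine to cells, affects the transcriptome of newborn heart muscle cells with and without injury. Each of 4 groups had 3 RNA sequencing libraries. NAC MI pups were injected daily with NAC on postnatal days 0 to 1, had the left anterior descending coronary artery occluded on day 2 (myocardial infarction, MI), and were killed on day 3. Saline MI pups had saline and the same occlusion, NAC sham pups had NAC and a sham procedure, and saline sham pups had saline and a sham procedure. All mice were wild type. The NAC was at a dose called high, in HEPES-buffered saline (25 mM HEPES, 140 mM NaCl), whereas the control is named only as saline. Cardiomyocytes came from enzyme-digested ventricles of pooled hearts and were enriched with a neonatal cardiomyocyte isolation kit. The number of hearts in a pool, the strain and the sex are not given in the sources used here. No label states that replicates came from separate litters, so p-values reflect only how these libraries scatter.

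Replication starts at origins where the origin recognition complex, Cdc6 and Cdt1 load the ring of Mcm2 to Mcm7. Cdc45 and the GINS complex then turn this ring into the active helicase, and polymerases, a sliding clamp and a steady supply of deoxynucleotides carry the fork. Many of these genes are transcribed together at the G1 to S transition under E2F transcription factors. Mouse cardiomyocytes still divide in the first days after birth, and later they copy DNA without dividing and become binucleate or polyploid. Transcripts of replication genes are therefore read apart from those of mitosis in this tissue.

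The sites through which E2F factors act could be looked for in the promoters. RefSeq promoters (build GRCm38.p6, from 250 bases before to 50 bases after the start) were matched to 36 of the 44 genes by symbol. The E2F core was searched as TTCCCGC, as TTGGCGC or as TTCGCGC on both strands, and the last of these, read in reverse, can overlap TTGGCGC. At least 1 match was found in 24 of the 36 genes (66.7%), against 9.20% of 27025 genes with a promoter. CCAAT, the letters of NF-Y sites, was found in 24 of 36 (66.7%), against 41.1% of all genes. TTTGAA, the letters of the cell cycle homology region of many mitotic genes, was found in 6 of 36 (16.7%), against 20.2% of all genes. A match is a description of the letters and not a shown binding site. The 120 bases before the start are printed for 4 genes to which the results below return. Capitals mark the E2F core and CCAAT in either direction.
Mcm6, chr1:128359706-128359825, minus strand: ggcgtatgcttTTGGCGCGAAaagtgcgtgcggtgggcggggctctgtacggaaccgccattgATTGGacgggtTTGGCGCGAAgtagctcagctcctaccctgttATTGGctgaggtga
Orc1, chr4:108579334-108579453, plus strand: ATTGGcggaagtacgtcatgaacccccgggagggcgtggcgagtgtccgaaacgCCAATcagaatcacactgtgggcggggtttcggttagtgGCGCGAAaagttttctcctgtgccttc
Prim1, chr10:128015095-128015214, plus strand: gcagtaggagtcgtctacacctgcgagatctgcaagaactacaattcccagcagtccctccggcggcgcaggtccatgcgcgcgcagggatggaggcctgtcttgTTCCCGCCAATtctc
Rrm2, chr12:24708134-24708253, plus strand: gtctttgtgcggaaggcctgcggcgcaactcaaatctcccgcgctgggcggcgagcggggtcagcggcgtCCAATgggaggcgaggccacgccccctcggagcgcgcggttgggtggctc
In Mcm6 the E2F core occurs at 2 places, each read on both strands, and CCAAT stands in reverse at 2 others. Orc1 has 1 E2F core, in reverse, and 2 CCAAT matches. In Prim1 a single E2F core runs into a CCAAT match. Rrm2 has CCAAT but none of the E2F core letters in this window.

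The 12 libraries held 14353842 to 25118341 reads. Sample titles carry prefixes of unstated meaning: R230 and R235 each hold MI libraries of both treatments, and among the sham libraries R207 holds both treatments, R219 saline and the absence of a prefix NAC. Prefix and surgery cannot be told apart. Cardiomyocyte markers were strong in every library, with summed normalised counts of 14 markers of 268146 to 752439 and none at 0. Markers of other cells were also present. The summed counts of 14 macrophage and monocyte markers were 1085 to 12352 in NAC MI, 9501 to 13944 in saline MI, 1236 to 22497 in NAC sham and 783 to 1372 in saline sham libraries. There were 3 libraries that stood apart: NAC sham 2 had the highest macrophage sum (22497) and the lowest cardiomyocyte sum, NAC MI 2 had a macrophage sum of 1085 beside 12352 and 10628 in its group, and saline sham 3 differed from its group in a way that followed gene length. In saline sham 3 the median deviation from the gene's own mean over all libraries, on the log2(value + 1) scale, was 0.23 for the 21 members with shorter transcripts and -0.093 for the 22 with longer ones (divided at the median of 2796 bases). In the other sham libraries it was 0.013 to 0.12 for the shorter and 0.12 to 0.23 for the longer members. Over the 14980 genes with a known length, which share the library, Spearman's rho between length and deviation was -0.44 in saline sham 3, and -0.41, -0.38 and -0.061 in the saline MI libraries, against -0.10 to 0.0086 in NAC MI and 0.18 to 0.27 in the other sham libraries. Counts of members whose groups do not overlap are also given without the 3 libraries, where they moved.

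Compared per kilobase of transcript, the members spanned a wide range of levels. Pcna, the sliding clamp of the polymerases, was highest with a mean of 1618 normalised counts per kilobase over the 12 libraries. Next came Rrm2 (698), Mcm6 (676) and Rrm1 (614), and among the tested members Orc1 was lowest with 19.9. The libraries agreed well on these genes: the median SD within groups, on the log2(value + 1) scale, was 0.20 for the 43 members and 0.32 for the 10707 genes tested in the same range of levels.

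As a set the replication genes were lowest in saline MI libraries. The median deviation of the 43 members from their own means was -0.026, -0.068 and 0.021 in the NAC MI libraries, -0.12, -0.14 and -0.17 in saline MI, 0.080, 0.099 and 0.11 in NAC sham, and 0.11, 0.17 and 0.053 in saline sham. Every MI library thus lay below every sham library, and every saline MI library below every NAC MI library, while the NAC sham and saline sham libraries overlapped. The single lowest library of a member was a NAC MI library for 13 members, saline MI for 19, NAC sham for 5 and saline sham for 6. For 29 of the 43 the single highest library was a saline sham library, and for 12 members it was saline sham 3. In bulk RNA, fewer cycling cells and less RNA per cell cannot be told apart.

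**Figure D1:**
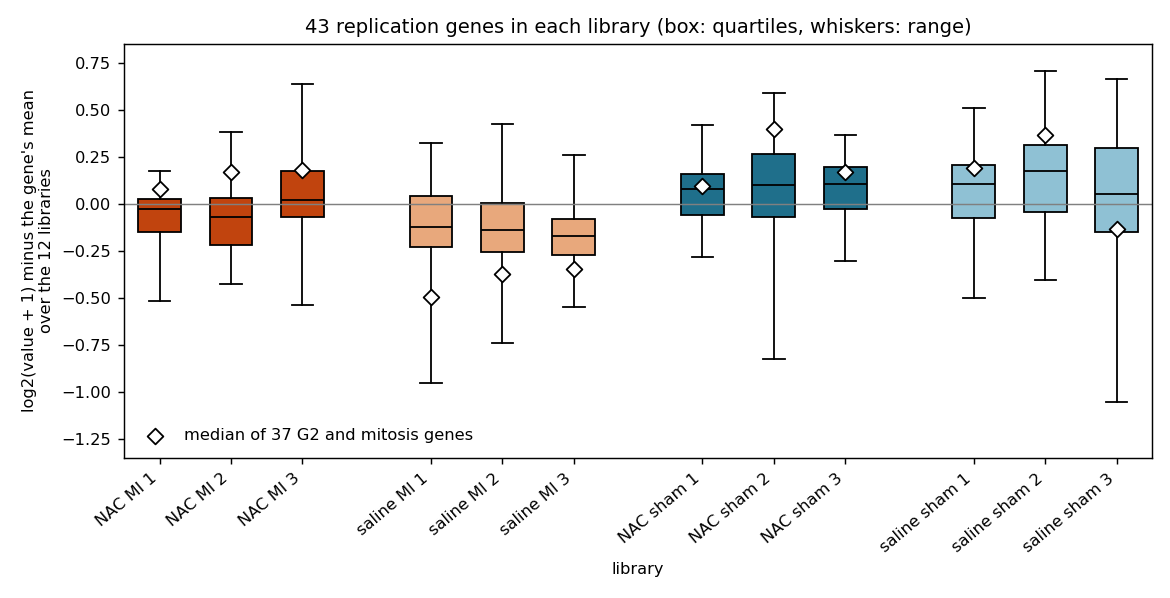
Deviation of the 43 tested replication genes from their own mean over the 12 libraries, on the log2(value + 1) scale (y axis), in each library (x axis). Boxes show quartiles, whiskers the full range and diamonds the median of 37 G2 and mitosis genes, which lies between -0.35 and -0.49 in the saline MI libraries and at or above 0.081 in the NAC MI libraries.

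MI was first set against sham after saline, the comparison of injured and uninjured hearts without NAC. Most replication genes were lower in saline MI, by modest amounts: 38 of the 43 members had a negative log2 fold change (88.4%, against 50.9% of all 14996 genes tested), and the median was -0.25, against -0.0075 over all genes. The lowest were Orc1, an ATPase subunit of the origin recognition complex (-0.89 ± 0.29, log2 ± SE), Cdc6, which loads the Mcm ring (-0.62 ± 0.20), Chaf1b of the chromatin assembly factor (-0.60 ± 0.20) and Tk1, thymidine kinase (-0.55 ± 0.18). No member passed at an adjusted p under 0.05 in limma, in edgeR's quasi-likelihood test or in DESeq2, where limma called 0.86% of all genes; the smallest adjusted p of a member was 0.197, for Rrm2. At an unadjusted p under 0.05, 10 members were lower, against 4.53% of all genes, and none was higher. In 15 of 43 (34.9%) all 3 saline MI libraries lay below all 3 saline sham libraries, against 8.15% of all genes: Mcm3, Mcm6, Mcm7, Cdc6, Orc1, Cdc45, Pcna, Pola2, Prim1, Rpa1, Rpa2, Rrm1, Rrm2, Tk1 and Chaf1b. With saline sham 3 left out the same count was 22 (51.2%, against 22.3% of all genes).

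Other cells moved with this comparison. The macrophage sums above were higher in all saline MI than in all saline sham libraries, summed counts of 10 fibroblast markers were 168127 to 256565 in saline MI and 105617 to 152442 in saline sham, and those of 12 endothelial markers were 66592 to 80046 in saline MI and 101656 to 112482 in saline sham. Sums of 9 neutrophil markers were 5139 to 6048 in saline MI and 158 to 825 in saline sham, those of 10 epicardial markers 5258 to 6071 in saline MI and 2982 to 3716 in saline sham, and those of 8 mural markers 19307 to 22204 in saline MI and 22523 to 29119 in saline sham. Mitochondrial genes took 30.2%, 24.7% and 26.6% of the reads in saline MI and 7.65%, 13.6% and 27.7% in saline sham. The part of these cells and reads in the lower replication genes was not tested.

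After NAC, MI against sham gave a smaller shift. Here 28 of the 43 members were lower in NAC MI (against 50.2% of all genes), and the median log2 fold change was -0.12, against -0.0018 over all genes, and -0.075 without NAC MI 1. Mcm4 of the helicase ring (-0.41 ± 0.18), Pold1, the catalytic subunit of polymerase delta (-0.38 ± 0.19), Cdt1 (-0.34 ± 0.18) and Cdc45 (-0.33 ± 0.19) had the smallest p-values. None passed in limma, edgeR or DESeq2, and limma called 0.127% of all genes; the smallest adjusted p was 0.487, for Mcm4, the single member lower at an unadjusted p under 0.05 (4.88% of all genes). All 3 NAC MI libraries lay below all 3 NAC sham libraries for 12 members (27.9%, against 9.96% of all genes): Mcm4, Cdt1, Orc1, Cdc45, Rfc1, Pola2, Pold1, Pole, Rrm2, Uhrf1, Dnmt1 and Chaf1a. Pold2 alone was higher in all 3, against 9.08% of all genes. Without the 3 libraries that stood apart, 21 members (48.8%) were lower in every remaining NAC MI library, against 26.9% of all genes. The saline and NAC comparisons of surgery share no library, and 4 genes were lower without overlap in both: Cdc45, Orc1, Pola2 and Rrm2 (26.7% of the saline list and 33.3% of the NAC list). These are 9.30% of the 43 members, against 1.71% of all genes lower in both, and the product of the 2 lists' lengths over 43 is 4.19, so the lists shared no more genes than their lengths give. Epicardial sums were 5692 to 22306 in NAC MI and 2613 to 5361 in NAC sham, and mural sums were 18233 to 21287 in NAC MI and 23566 to 27875 in NAC sham; their part was not tested.

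Averaged over both treatments, 37 of the 43 members were lower after MI (against 50.3% of all genes), with a median of -0.17, against -0.0030 over all genes. The smallest p-values belonged to Rrm2 (-0.32 ± 0.10, adjusted p = 0.102), Pola2 (-0.34 ± 0.11, adjusted p = 0.108), Cdc45 (-0.38 ± 0.13, adjusted p = 0.14) and Orc1 (-0.58 ± 0.21, adjusted p = 0.142). No member was called by limma or edgeR, against 2.74% of all genes in limma, and 9 were lower at an unadjusted p under 0.05 (20.9%, against 9.83% of all genes). Rrm2 was the only member lower in all 6 MI than in all 6 sham libraries, against 0.76% of all genes. The count was 4 without NAC MI 3 (against 1.38% of all genes) and 6 without saline sham 3 (against 4.33%). It was 8 without the 3 libraries that stood apart (18.6%, against 6.33% of all genes). It was 2 without NAC sham 2 (against 0.840% of all genes) and 2 without saline MI 2 (against 1.0003%). DESeq2 on the recovered reads called Rrm2 (adjusted p = 0.0425), among 6.1% of the genes it tested.

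Calls in this contrast depended on the libraries. Without saline sham 3 limma called 5 members averaged over treatments (Uhrf1, Dnmt1, Pole, Cdc6 and Mcm4, all lower after MI), among 10.4% of all genes. Without all 3 libraries that stood apart it called 3 members after saline (Uhrf1, Pole and Cdc6), among 12% of all genes, and 2 averaged over treatments (Uhrf1 and Pole), among 14.6%. With library quality weights it called 12 members after saline, among 19.4% of all genes, and 13 averaged over treatments, among 27.9%, so that these shares of the members (27.9% and 30.2%) lay near those of all genes.

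**Figure D2:**
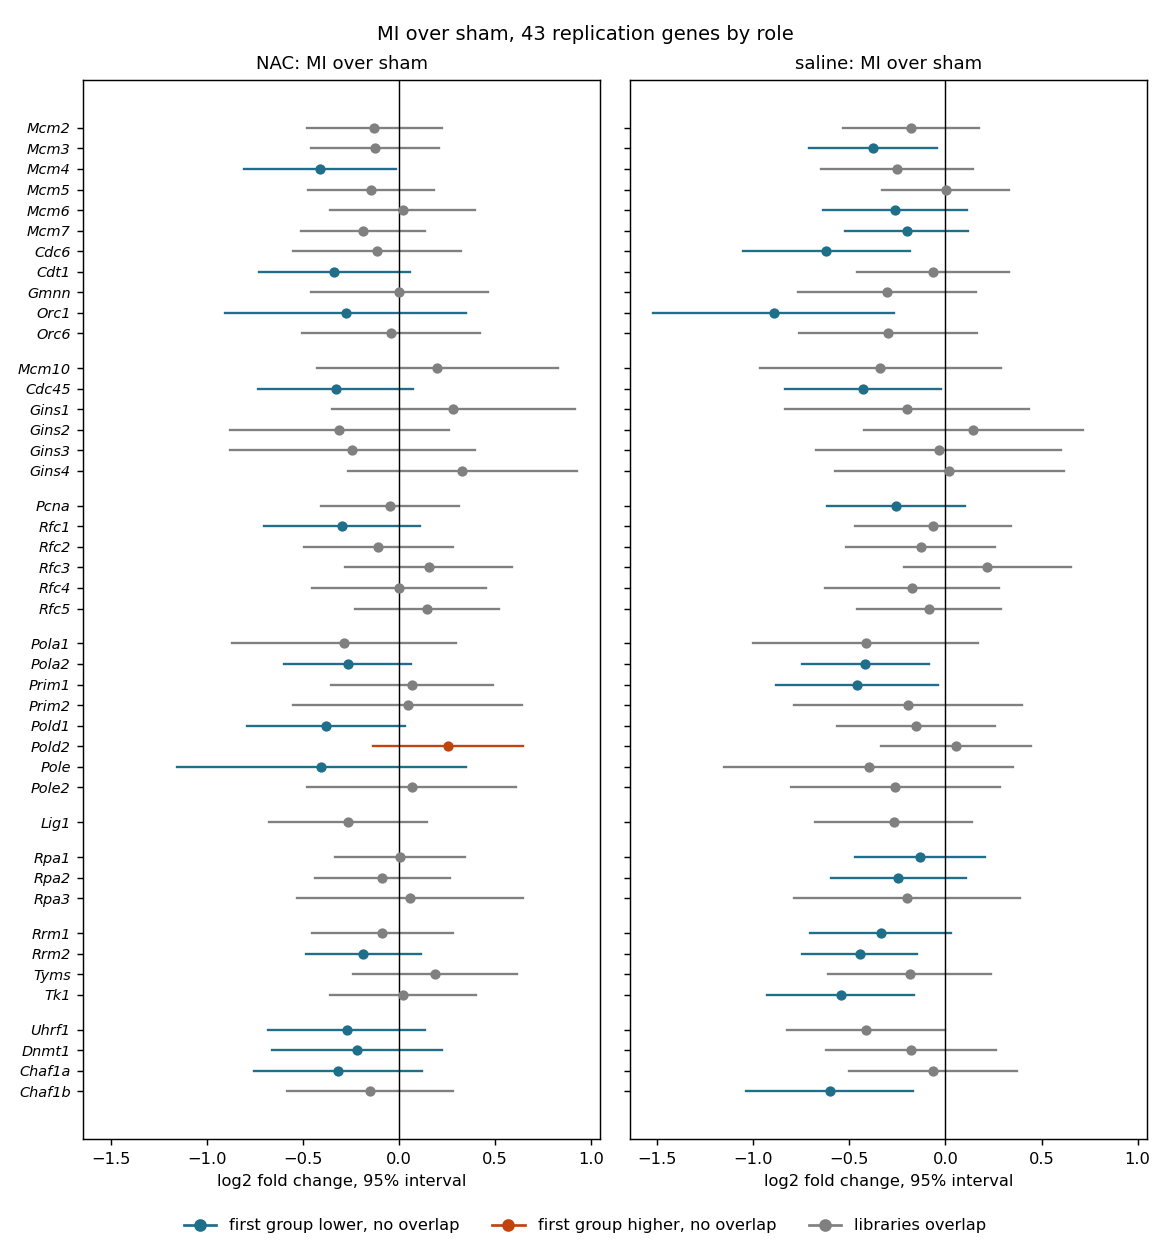
Log2 fold change of MI over sham with 95% intervals (x axis) for the 43 replication genes by role (y axis), after NAC (left) and after saline (right). Blue marks genes lower in all 3 MI libraries (12 after NAC, 15 after saline) and orange the single gene higher in all 3, Pold2 after NAC.

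NAC was then set against saline within each surgery. After MI, where the saline MI libraries are the same ones that entered the comparison of surgery after saline, 31 of the 43 members were higher in NAC MI (against 48.1% of all genes). The median log2 fold change was 0.10, against -0.018 over all genes, and it was 0.042 without NAC MI 3 and 0.043 with library quality weights. Orc1 (0.76 ± 0.29), Pola1, the catalytic subunit of polymerase alpha (0.58 ± 0.27), Prim1, the catalytic subunit of primase (0.55 ± 0.19), and Rrm1, the large subunit of ribonucleotide reductase (0.38 ± 0.17), had the smallest p-values. The smallest adjusted p was 0.529; no member and 0% of all genes passed in limma, and none of the members passed in edgeR or DESeq2. At an unadjusted p under 0.05, 3 members were higher, against 3.86% of all genes. All 3 NAC MI libraries lay above all 3 saline MI libraries for 9 members (20.9%, against 8.84% of all genes): Orc1, Rfc4, Prim1, Pole, Pole2, Rpa3, Rrm1, Rrm2 and Chaf1b. Pola2 alone was lower in all 3, against 11.5% of all genes, and overlapped when libraries were scaled to equal totals without mitochondrial and globin genes. Leaving out NAC MI 1 raised the count of 9 to 14 (32.6%, against 15.2% of all genes), and leaving out the 3 libraries that stood apart gave 13 (30.2%, against 13.6%). Within the title prefixes that hold MI libraries of both treatments the median difference was 0.15 in R230 (31 of 43 higher) and 0.13 in R235 (30 of 43 higher). Over all genes it was 0.040 and -0.031. R230 holds a single NAC library, NAC MI 3, and R235 a single saline library, saline MI 3. With library quality weights limma called Orc1 (0.94, adjusted p = 0.0421), among 4.57% of all genes. Summed counts of 11 erythroid markers were 269481 to 522674 in NAC MI and 878109 to 1384110 in saline MI, and their part was not tested.

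After sham surgery the members were spread around no difference. In NAC sham 22 of 43 were lower (51.8% of all genes), and the median was -0.0061, against -0.016 over all genes. Rpa2 of the single-strand binding complex (-0.38 ± 0.16) had the smallest p, with an adjusted p of 0.77 in limma, and was the single member lower at an unadjusted p under 0.05 (2.36% of all genes). None of the members and 0% of all genes passed in limma, and no member passed in edgeR or DESeq2. In 4 members, Pola2, Tk1, Rpa2 and Rfc5, all 3 NAC sham libraries lay below all saline sham libraries (9.30%, against 4.5% of all genes), and in none did they lie above. The count was 7 (16.3%) without NAC sham 2, without saline sham 2 or without saline sham 3, against 14.2%, 13.1% and 7.88% of all genes. In these settings 2, 4 and 1 members were higher without overlap, against 14.0%, 13.1% and 8.86% of all genes. Without the 3 libraries that stood apart 14 members were lower (32.6%, against 23.5% of all genes) and 7 higher (16.3%, against 22.4%). Within prefix R207, which holds NAC sham 2 and 2 saline sham libraries, the median difference was -0.045 (0.0042 over all genes), with 18 of 43 higher. The 95% interval stayed within 1 log2 unit either way for 41 of the 43 members. It did so for 39 members between MI and sham after saline as well, so this bound does not set these comparisons apart. The median turned to 0.062 when libraries were scaled to equal totals without mitochondrial and globin genes. Erythroid sums were 192391 to 414155 in NAC sham and 548101 to 1398710 in saline sham, and their part was not tested.

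Averaged over surgeries, 23 members were higher after NAC (against 47.6% of all genes), with a median of 0.053, against -0.021 over all genes. The median was 0.017 to 0.029 without NAC sham 3, saline sham 3, NAC MI 3 or saline MI 3. Pola1 was highest (0.52 ± 0.19, adjusted p = 0.259), followed by Orc1 (0.45 ± 0.21) and Rfc4 of the clamp loader (0.33 ± 0.15), and Rpa2 was lowest (-0.30 ± 0.12). In limma no member and 0% of all genes passed, and DESeq2 called 2.59% of the genes it tested but no member. In limma, at an unadjusted p under 0.05, 3 members were higher and 2 lower, against 7.62% and 7.9% of all genes. None had all 6 NAC libraries above or below all 6 saline libraries, against 0.447% and 0.393% of all genes. All 43 intervals stayed within 1 log2 unit either way, as 42 did for MI against sham averaged over treatments. With library quality weights limma called Pola1, Rfc4 and Pola2, among 13.5% of all genes. Erythroid sums were at most 522674 in the 6 NAC libraries and at least 548101 in the 6 saline libraries, and their part was not tested.

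The interaction asks whether the difference between MI and sham was itself different after NAC. It was positive, meaning a less negative or more positive MI effect after NAC, for 32 of the 43 members (against 50.1% of all genes), with a median of 0.18, against 0.00092 over all genes, and 0.11 without NAC MI 3. Tk1 (0.57 ± 0.25), Prim1 (0.53 ± 0.28), Cdc6 (0.50 ± 0.29) and Chaf1b (0.45 ± 0.28) had the smallest p-values. Tk1 alone reached an unadjusted p under 0.05 (against 0.593% of all genes), and in limma no member and 0% of all genes passed after adjustment. The intervals were wide: 29 of 43 stayed within 1 log2 unit either way. The interaction uses the same saline MI libraries as the comparisons of surgery after saline and of treatment after MI, so it is not a separate observation.

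**Figure D3:**
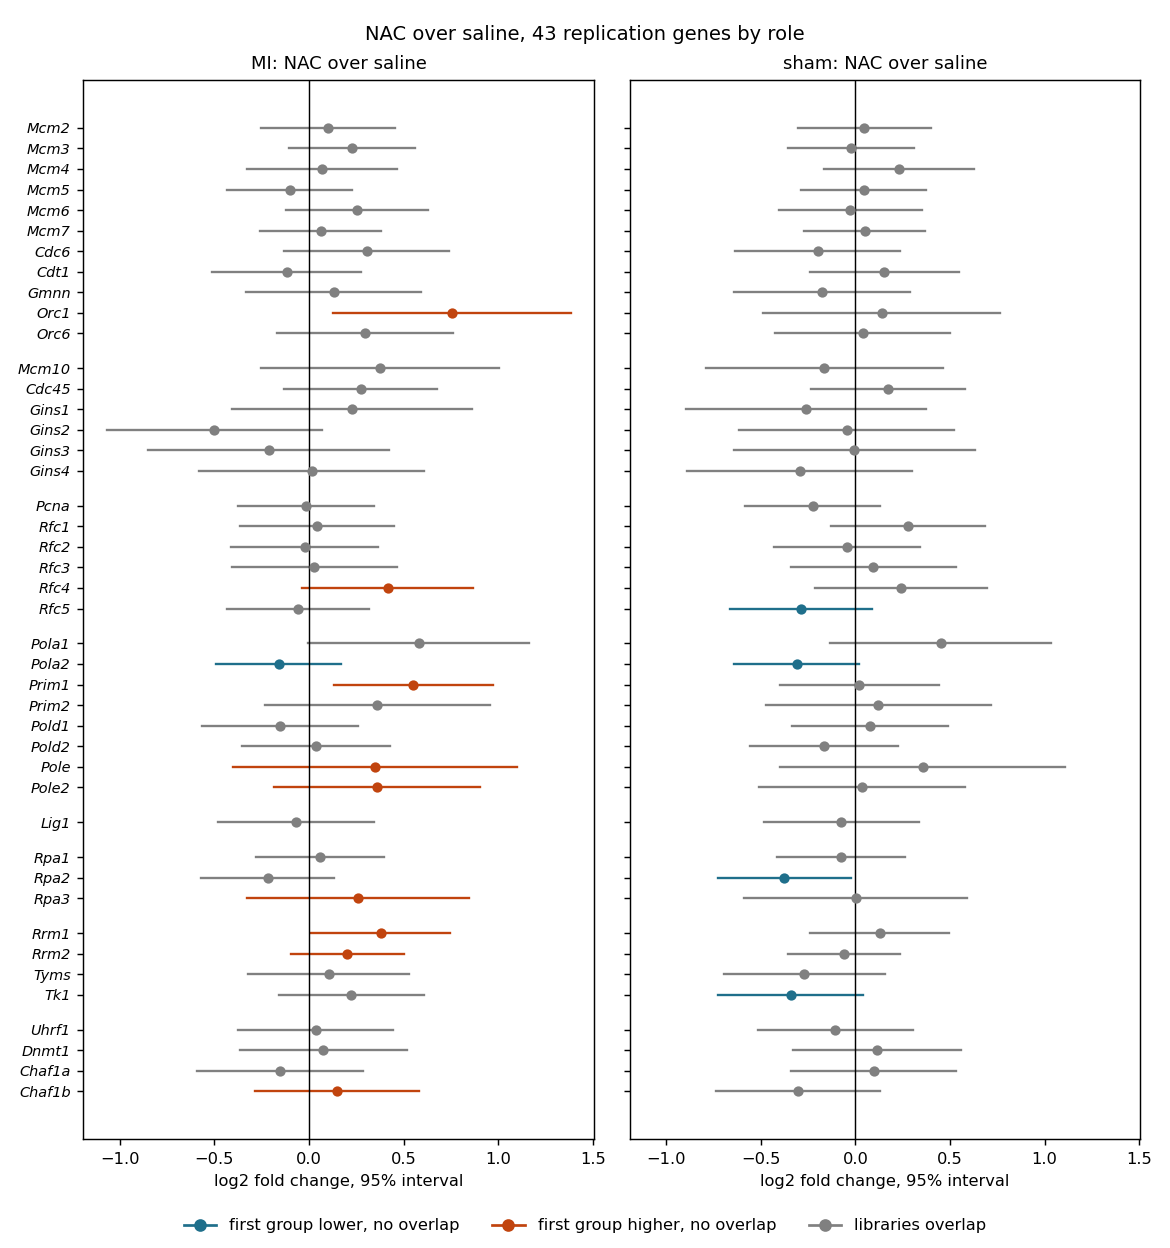
Log2 fold change of NAC over saline with 95% intervals (x axis) for the 43 replication genes by role (y axis), after MI (left) and after sham surgery (right). Orange marks genes higher in all 3 NAC libraries (9 after MI) and blue those lower in all 3 (Pola2 after MI, and 4 genes after sham surgery).

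Among the genes that license origins, Orc1 (chr4:108579423-108614833, plus strand; gene positions are on GRCm38) carried the widest differences. Its normalised counts were 63.8, 59.4 and 59.9 in NAC MI, 29.2, 40.1 and 38.98 in saline MI, 72.5, 79.7 and 70.4 in NAC sham and 60.9, 87.3 and 57.1 in saline sham. All saline MI libraries lay below those of the other 3 groups, and NAC MI overlapped saline sham but not NAC sham. Cdc6 (chr11:98907801-98923940, plus strand) had 226, 251 and 241 in NAC MI, 229.9, 178 and 177 in saline MI, 246, 278 and 256 in NAC sham and 333, 331 and 239 in saline sham, so that saline MI was lowest but shared its range with NAC MI. Cdt1, the partner of Cdc6 in loading, had 684, 504 and 559.7 in NAC MI against 786, 691 and 715 in NAC sham, and 599, 727 and 566 in saline MI against 735, 692 and 556 in saline sham, where the libraries overlapped. Its inhibitor Gmnn (geminin) averaged 514 ± 18.6 in NAC MI, 472 ± 63.2 in saline MI, 518 ± 87.2 in NAC sham and 594 ± 168 in saline sham (SD, n = 3 each). Orc6, the smallest origin recognition subunit, had a log2 fold change of -0.30 ± 0.21 after saline and -0.042 ± 0.21 after NAC, and its libraries overlapped in both.

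The 6 subunits of the Mcm ring did not move alike in size. Mcm6, highest of the licensing genes by mean count, had 1702, 1934 and 2592 in NAC MI, 1721, 1771 and 1644 in saline MI, 2050.3, 2067 and 1937 in NAC sham and 2019, 2303 and 1862 in saline sham. Saline MI was lower than saline sham in every library (-0.26 ± 0.17), whereas NAC MI spanned the whole sham range. Mcm4 had 846, 1041 and 1121 in NAC MI, 914, 897 and 1044 in saline MI, 1256, 1513 and 1226 in NAC sham and 1208, 1303 and 916 in saline sham, with no overlap of NAC MI and NAC sham. Between MI and sham after saline, Mcm3 gave -0.38 ± 0.15, Mcm7 -0.20 ± 0.15, Mcm2 -0.18 ± 0.16 and Mcm5 0.00049 ± 0.15, and the 95% interval of Mcm5 was -0.33 to 0.33. The differences among the subunits were not tested.

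Of the factors that activate the helicase, Cdc45 was lower after MI under both treatments. It had 329, 285 and 364 in NAC MI, 238, 302 and 269.9 in saline MI, 379, 483 and 372 in NAC sham and 381, 376 and 332 in saline sham. MI and sham did not overlap under either treatment. Gins4, highest of these genes by mean count, had 323, 325 and 511 in NAC MI, 389, 375 and 355 in saline MI, 343, 233 and 337 in NAC sham and 278, 323 and 552 in saline sham, with overlap in every comparison. The other GINS subunits overlapped as well. Gins2 shares 67.3% of its exon bases with Gse1 on the opposite strand, and since the strand setting of the counting is not given, its reads cannot be told apart from those of Gse1. Mcm10, which helps to start the helicase, had -0.34 ± 0.29 between MI and sham after saline and 0.20 ± 0.29 after NAC.

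The clamp and the subunits of its loader did not all move in the same direction between MI and sham after saline. Pcna had 2275, 2026 and 2647 in NAC MI, 2536, 2152 and 2308 in saline MI, 2206, 2684 and 2269.9 in NAC sham and 2541, 2749.6 and 3082 in saline sham. Saline MI lay just below saline sham without overlap, while NAC MI and NAC sham overlapped. Rfc4, a small clamp loader subunit, had 255, 268 and 254 in NAC MI, 209.8, 209 and 167 in saline MI, 289, 204 and 296 in NAC sham and 206.6, 201 and 253 in saline sham, and NAC MI was higher than saline MI in every library. The large subunit Rfc1 averaged 745 ± 7.47 in NAC MI and 918 ± 79.1 in NAC sham, and 727 ± 100.1 in saline MI and 769 ± 172 in saline sham (SD, n = 3 each). Rfc2, Rfc3 and Rfc5 had log2 fold changes of -0.13, 0.22 and -0.085 between MI and sham after saline, all with overlapping libraries.

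Polymerase and primase subunits held both the most regular and the most library-dependent patterns. Pola2 (chr19:5940542-5964202, minus strand), the accessory subunit of polymerase alpha, had 539, 567 and 580.1 in NAC MI, 597, 698 and 593 in saline MI, 618, 758 and 661 in NAC sham and 868, 821 and 828 in saline sham. Its groups did not overlap in any of the 4 pairwise comparisons, but they overlapped in both comparisons of NAC and saline when libraries were scaled to equal totals without mitochondrial and globin genes. Its catalytic partner Pola1 had 402, 525 and 392 in NAC MI, 247, 241 and 415 in saline MI, 538, 578 and 484 in NAC sham and 387, 545 and 278 in saline sham. Pola1 was thus higher on average after NAC under both surgeries, with 1 saline library inside the NAC range each time, whereas Pola2 was lower. Prim1 (chr10:128015168-128030037, plus strand) had 399, 390.3 and 611 in NAC MI, 303, 315 and 316 in saline MI, 407, 409 and 494 in NAC sham and 429, 423 and 434 in saline sham. The 3 saline MI libraries were the lowest of all 12, and NAC MI 3 was the highest. Prim2, the other primase subunit, gave 0.36 ± 0.27 between NAC and saline after MI, with overlapping libraries.

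Pold1 had 637, 679.6 and 597 in NAC MI, 722, 729 and 671 in saline MI, 719, 879 and 902 in NAC sham and 1047, 654 and 710.5 in saline sham. NAC MI lay below NAC sham throughout, while saline MI lay inside the wide saline sham range. Pold2, its accessory subunit, ran the other way after NAC, with 603, 600.0 and 698 in NAC MI and 544, 506 and 539 in NAC sham. Pole, the catalytic subunit of polymerase epsilon, is given in full because of saline sham 3, a choice made after its values were seen. It had 468, 556 and 533 in NAC MI, 343, 459 and 424 in saline MI, 619, 793 and 657 in NAC sham and 705, 859 and 253 in saline sham. Saline sham 3 was the lowest of all 12, and Pole has the longest transcript of the members (7163 bases). Without the 3 libraries that stood apart, its log2 fold change between MI and sham after saline was -0.94 (adjusted p = 0.00831 in limma), against -0.40 (adjusted p = 0.713) with all libraries. Spearman's rho between length and deviation over all genes was -0.44 in saline sham 3. It was also -0.41 and -0.38 in saline MI 1 and 2, which were kept, against 0.18 and 0.26 in saline sham 1 and 2. The part of transcript length in either fold change was not tested. Pole2 averaged 178 ± 45.7 in NAC MI and 136 ± 10.2 in saline MI (SD, n = 3 each).

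Lig1, the ligase that seals Okazaki fragments, had 973, 729 and 938 in NAC MI, 985, 904 and 861 in saline MI, 940.3, 1187 and 1034 in NAC sham and 1332, 1147 and 881 in saline sham. Each MI group overlapped its sham group, with log2 fold changes of -0.26 ± 0.19 after NAC and -0.27 ± 0.19 after saline. Fen1, the flap endonuclease that trims those fragments, fell below the filter on low values. Its values were 1.88, 10.1 and 0 in NAC MI, 3.37, 3.71 and 1.95 in saline MI, 8.19, 10.5 and 5.35 in NAC sham and 5.80, 6.95 and 8.33 in saline sham. On the reference annotation 84.2% of its exon bases (chr19:10199132-10204169, minus strand, GRCm38) also belong to Gm10143 or Tmem258 on the opposite strand, and neither the counting mode nor the strand setting is given in the sources used here. Its low level therefore cannot be told apart from reads not assigned in the overlap.

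The single-strand binding complex had its largest subunit, Rpa1, at 1358, 1268 and 1407 in NAC MI, 1276, 1373 and 1221 in saline MI, 1586, 1137 and 1328 in NAC sham and 1447, 1391 and 1395 in saline sham. Saline MI lay narrowly below saline sham (-0.13 ± 0.16), and NAC MI lay inside the NAC sham range. Rpa2 had 465, 390.3 and 508 in NAC MI, 555, 519 and 504 in saline MI, 463, 475 and 503 in NAC sham and 564, 642 and 670.0 in saline sham, so that all saline sham libraries exceeded those of every other group. The small subunit Rpa3 was lower in all saline MI than in all NAC MI libraries (0.26 ± 0.27 for NAC over saline, adjusted p = 0.748 in limma).

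Of the nucleotide supply genes, Rrm2 kept MI and sham apart in every library. Rrm2, the small subunit of ribonucleotide reductase that is made in S phase (chr12:24708241-24714146, plus strand), had 1506, 1504 and 1375 in NAC MI, 1211, 1359 and 1241 in saline MI, 1692, 1626 and 1663 in NAC sham and 1764, 1652 and 1777 in saline sham. Every MI library lay below every sham library, and every saline MI library below every NAC MI library. The log2 fold change of MI over sham was -0.18 ± 0.14 after NAC and -0.45 ± 0.14 after saline. Rrm1 had 2379.9, 2578 and 2759 in NAC MI, 1930.4, 2067 and 1927 in saline MI, 3008, 2508 and 2692 in NAC sham and 2235, 3115 and 2230.2 in saline sham, and saline MI was below all other libraries. Tk1, which salvages thymidine (chr11:117815526-117826092, minus strand), had 610.0, 861 and 723 in NAC MI, 697, 659.6 and 518 in saline MI, 651, 740.1 and 754 in NAC sham and 901, 894 and 919.9 in saline sham. All 3 saline sham libraries exceeded every other library, while NAC MI and NAC sham overlapped. Tyms, thymidylate synthase, averaged 519 ± 44.05 in NAC MI, 484 ± 59.6 in saline MI, 461 ± 92.0 in NAC sham and 554 ± 88.6 in saline sham (SD, n = 3 each), with overlap in every comparison.

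**Figure D4:**
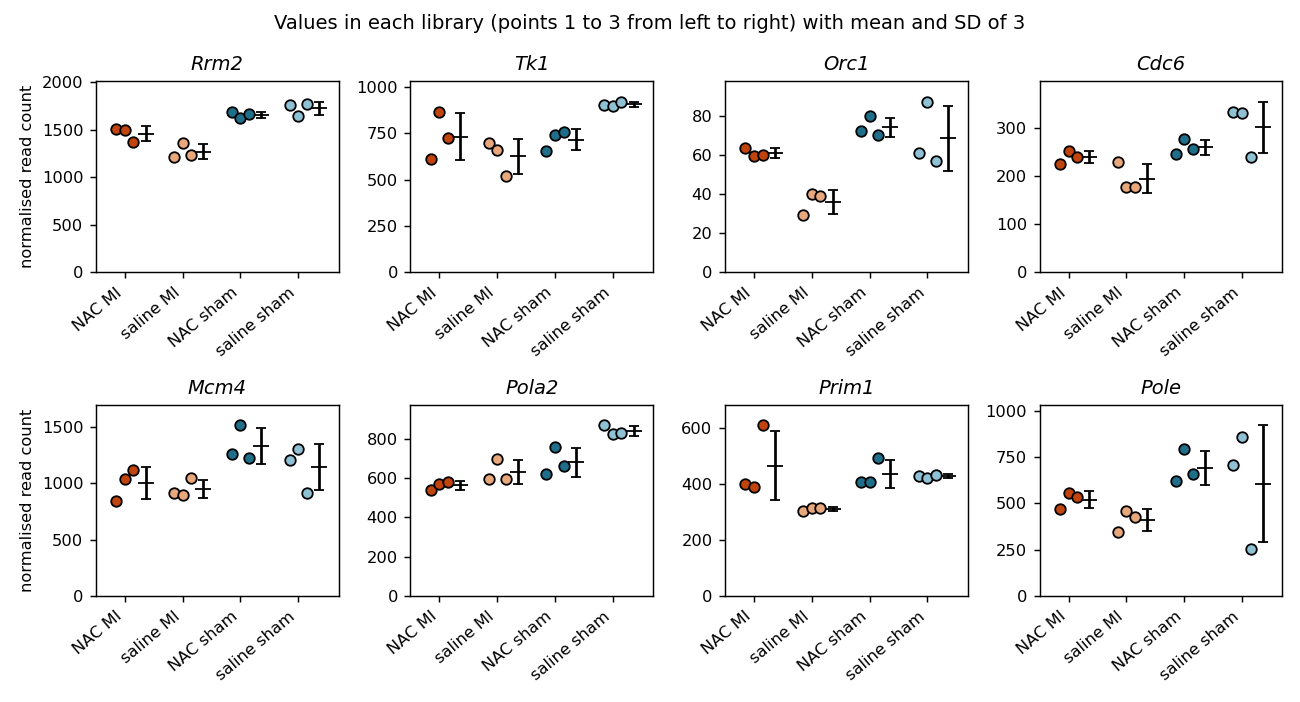
Normalised read counts (y axes, from 0) of 8 replication genes in each library (points, libraries 1 to 3 from left to right) by group (x axes), with mean and SD of 3 libraries. Saline MI has the lowest mean for Rrm2, Tk1, Orc1, Cdc6, Mcm4, Prim1 and Pole, and NAC MI for Pola2. Pole shows the single low saline sham library at 253.

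Genes that copy chromatin behind the fork were lower on average after MI under both treatments. Dnmt1, the maintenance DNA methyltransferase, had 2150.0, 1816 and 2116 in NAC MI, 1854, 1962 and 1937 in saline MI, 2282, 2445 and 2340.2 in NAC sham and 2766, 2469.8 and 1505 in saline sham. The MI and sham groups were apart after NAC, but saline sham 3 lay below all saline MI libraries. Uhrf1, which brings Dnmt1 to newly copied DNA, averaged 1209 ± 116 in NAC MI and 1459.8 ± 138 in NAC sham, and 1176 ± 20.4 in saline MI and 1602 ± 393 in saline sham (SD, n = 3 each). Chaf1b had 306, 326 and 315 in NAC MI, 301, 298 and 258 in saline MI, 309, 437 and 319.8 in NAC sham and 375, 537 and 405 in saline sham, with saline MI below both saline sham and NAC MI. Its partner Chaf1a gave -0.32 ± 0.20 after NAC and -0.067 ± 0.20 after saline, and shares 52.5% of its exon bases with Ubxn6 on the opposite strand.

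A further 74 genes of the same pathways, all tested, were placed in 5 lists: origin, fork, nucleotide, S phase entry and chromatin genes. None passed in any of the 7 comparisons in limma. Between MI and sham after saline 61 of 74 were lower, 10 of them at an unadjusted p under 0.05 (against 4.53% of all genes), and the median was -0.26. After NAC 44 of 74 were lower, with a median of -0.10. At an unadjusted p under 0.05, 4 were lower and 2 higher, against 4.88% and 5.11% of all genes. The lowest adjusted p-values came from MI against sham averaged over treatments. They belonged to Dtl, which with its ubiquitin ligase removes Cdt1 in S phase (-0.72 ± 0.18, adjusted p = 0.0526), Ezh2, a histone methyltransferase (-0.48 ± 0.12, adjusted p = 0.0595), Umps, of uridine synthesis (0.53 ± 0.15, adjusted p = 0.0736), and Slbp, which binds histone mRNA (-0.57 ± 0.17, adjusted p = 0.086). Umps was higher after MI, and the other nucleotide genes had a median of 0.11 there, opposite in sign to the -0.24 of the 4 nucleotide members. Between NAC and saline after MI 57 of 74 were higher, 6 at an unadjusted p under 0.05 (against 3.86% of all genes), with Orc3 (0.55 ± 0.17), Orc4 (0.48 ± 0.19) and Dscc1, of an alternative clamp loader (0.65 ± 0.26), among those with the smallest p.

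Genes of G2 and mitosis were set beside the replication genes because they mark the next step of the cycle. Between MI and sham after saline all 37 were lower, with a median of -0.60, against -0.25 for the replication genes. The libraries did not overlap in 19, against 8.15% of all genes lower without overlap. After NAC 20 of 37 were lower, with a median of -0.051. Without overlap 5 were lower and 2 higher, against 9.96% and 9.08% of all genes. Between NAC and saline after MI all 37 were higher, with a median of 0.65, against 0.10 for the replication genes. In 24 the libraries did not overlap, against 8.84% of all genes higher without overlap. The median interaction was 0.55 for these genes and 0.18 for the replication genes. The same saline MI libraries enter the comparison of surgery after saline, that of treatment after MI and the interaction, so these are not separate observations. Hmmr, a spindle-binding protein, gave 1.31 ± 0.21 between NAC and saline after MI (adjusted p = 0.529 in limma), and Anln, a cleavage furrow protein, gave 0.94 ± 0.19. In limma with all 12 libraries and no quality weights, no G2 or mitosis gene passed in any comparison. The difference between the sets was not tested.

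**Figure D5:**
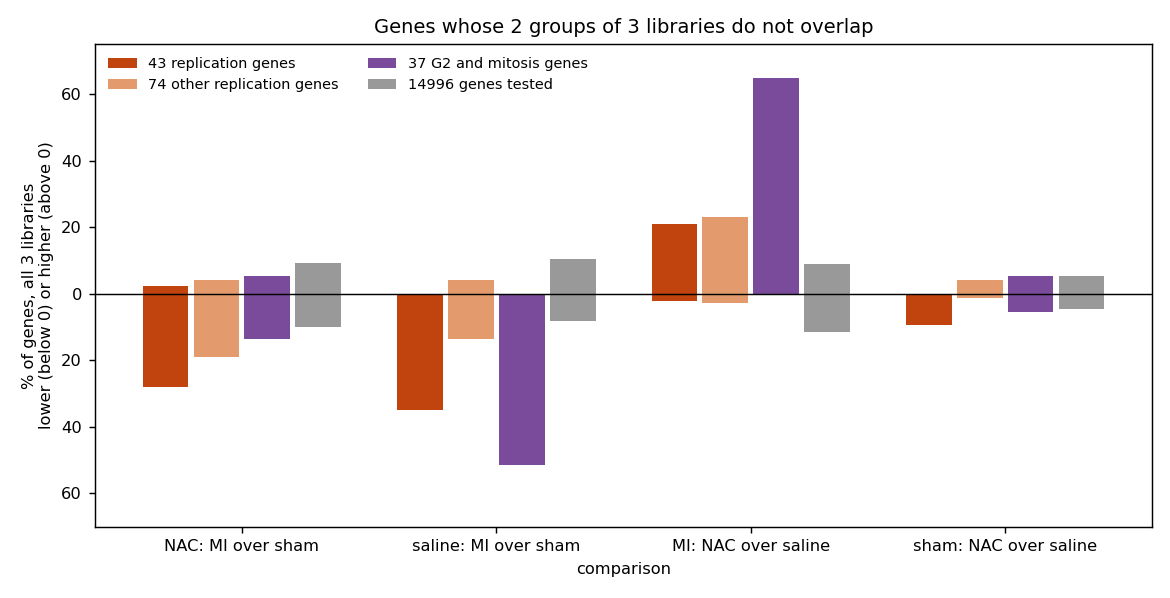
Share of genes (y axis, in %) with all 3 libraries of one group above (upward bars) or below (downward bars) all 3 of the other, in 4 comparisons (x axis), for the replication genes, 74 other replication genes, 37 G2 and mitosis genes and all 14996 genes tested. Between MI and sham after saline 34.9% of the replication genes and 8.15% of all genes were lower without overlap.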

How the data were processed

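RNA sequencing libraries (poly-A enriched) of 12 cardiomyocyte samples, 3 in each of 4 groups, were analysed from 1 table of normalised read counts (signal), as deposited by the authors. STAR 2.7.10a, genome build mm10 and DESeq2 1.44.0 are named in the submitters' processing notes; the gene counter, annotation and strand setting are not given in the sources used here. Multiplied by 1 size factor per library, 100% of the deposited values came within 0.01 of whole reads, which gave the depth.

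Values were tested as log2(value + 1) with limma 3.58.1 (R 4.3.3, trended variance), in 1 model of 4 group means over 12 libraries with 8 residual degrees of freedom. Fold changes on this scale understate those of low genes. Genes with a mean under 10 were left out, which left 14996, and two-sided p-values were adjusted over all of them by the Benjamini-Hochberg method. edgeR 4.0.16, which called 91, 25 and 432 genes for MI against sham after saline, after NAC and averaged, and DESeq2 1.42.0 were run on the recovered reads as alternatives. An exact permutation test of 3 against 3 libraries cannot go below 0.1, so none was used. Replicate numbers follow the order of the samples and pair nothing. Genes were matched by identifier to GENCODE M21 (52027 of 52336 identifiers).

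The members, the other gene lists and the markers were chosen with earlier results of these data known. All members are named; values per library are given for the 4 smallest p-values of each comparison and the highest mean of each of 8 roles, and other pathway genes for at most 3 per list and comparison.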

Additional observations from a re-analysis of the deposited data

How the results depend on the processing

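Across 25 alternatives 892 of the 937 recomputed values kept their direction and their side of the threshold, and no called value changed sign. Orc1 had the fewest reads of the tested members (26 in its lowest library), and the effect of depth was not tested. Fen1 fell below the filter on low values, and without that filter limma did not call it. Calls appeared where none stood before: library quality weights gave 12 members for MI against sham after saline, 13 averaged over treatments, 1 for NAC against saline after MI and 3 averaged over surgeries. Leaving out the 3 libraries that stood apart gave 3 after saline and 2 averaged over treatments, and DESeq2 gave 1 averaged over treatments. Leaving out single libraries gave 0 to 5 members averaged over treatments, with 5 without saline sham 3. The median log2 fold change of the members then ranged over -0.30 to -0.18 for MI against sham after saline, -0.15 to -0.075 after NAC, 0.042 (without NAC MI 3) to 0.12 for NAC against saline after MI, 0.017 to 0.065 averaged over surgeries, and 0.11 to 0.22 for the interaction. Equal totals without mitochondrial and globin genes gave medians of 0.062, 0.14 and 0.11 for NAC against saline after sham surgery, after MI and averaged. Quality weights gave 0.043 for NAC against saline after MI and -0.21 for MI against sham averaged, the title prefix as a block gave 0.17 and the R230 libraries alone 0.15 for NAC against saline after MI, and leaving out the 3 libraries gave 0.23 for the interaction. The counts without overlap, whose alternatives were chosen after seeing the data, moved to 21 for MI against sham after NAC, 8 averaged over treatments and 14 for NAC against saline after sham surgery without the 3 libraries. With single libraries left out they ranged over 1 to 6 averaged over treatments and 5 to 7 for NAC against saline after sham surgery, and 9 to 14 for NAC against saline after MI. The causes were not tested. No paired analysis was possible because the replicate numbers mark no shared animal, litter or day; treatment could be compared within title prefixes, as given, whereas surgery and prefix cannot be told apart.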
